A study of Homo sapiens with 12 samples.

Results

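The genes described here are 10 brakes and switches of the step from G1 into S phase: the CIP/KIP inhibitors CDKN1A, CDKN1B and CDKN1C, the INK4 inhibitors CDKN2C and CDKN2D, the retinoblastoma family RB1, RBL1 and RBL2, and the D cyclins CCND1 and CCND2. They were taken by name, and all 10 were found among the 21569 genes of the deposited count table. Polyadenylated RNA was sequenced from TC71, an established human Ewing sarcoma cell line, in 12 libraries. There were 4 groups of 3 libraries: wild-type TC71, 2 separate clones in which ID2 was knocked out (clone 1 and clone 2), and a rescue line derived from clone 2. All cells were grown in DMEM with fetal bovine serum. Each knockout group is a single clone, and the rescue line carries the background of clone 2, so a difference from wild-type cannot be told apart from what is peculiar to a clone. The labels do not state whether libraries of the same group come from different cultures. The p-values therefore rest on library-to-library spread alone, which could be technical.

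D cyclins bind and activate CDK4 and CDK6, and these kinases phosphorylate the proteins of the RB family. Unphosphorylated RB1 holds the activating E2F factors in check, while RBL1 and RBL2 work mainly with the repressive E2Fs, and RBL2 also in the DREAM complex that silences cell cycle genes in resting cells. INK4 inhibitors bind CDK4 and CDK6 directly, whereas CIP/KIP inhibitors act on cyclin-bound CDK2 and also take part in assembling D cyclin complexes. ID2 lacks a DNA-binding region of its own: it sequesters E proteins such as TCF3, which recognise E-box motifs, and it has been described as a partner of unphosphorylated RB. CDKN1A is the classical target of p53 and is also activated by E proteins. In Ewing sarcoma, CCND1 is known for very high expression.

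The sequences that bear on this are the stretches just upstream of CDKN1A, which E proteins can activate, and of RBL1, which is a known E2F target. Of the 10 genes, 7 had an entry in the RefSeq promoter table (GRCh38.p14). Both stretches are printed from 5′ to 3′ with motifs in capitals, and positions are counted back from the transcript start. The CDKN1A stretch ends at -57, because the 56 bases after it lie in annotated untranslated regions and are not printed.
CDKN1A, chr6:36678464-36678657, plus strand: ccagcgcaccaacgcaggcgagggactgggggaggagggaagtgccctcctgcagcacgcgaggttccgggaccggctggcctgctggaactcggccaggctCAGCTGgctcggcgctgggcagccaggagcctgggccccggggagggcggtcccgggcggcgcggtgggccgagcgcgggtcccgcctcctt
RBL1, chr20:37095998-37096247, minus strand: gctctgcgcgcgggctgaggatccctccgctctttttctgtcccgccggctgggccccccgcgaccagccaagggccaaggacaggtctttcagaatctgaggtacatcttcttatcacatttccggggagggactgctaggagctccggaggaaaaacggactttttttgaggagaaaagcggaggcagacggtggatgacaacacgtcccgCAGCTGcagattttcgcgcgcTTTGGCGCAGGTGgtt
In CDKN1A the capitals mark an E-box of the form CAGCTG at -148 to -143. In RBL1 they mark a CAGCTG at -37 to -32, the E2F-type motif TTTGGCGC at -16 to -9, and the E-box CAGGTG at -9 to -4, whose first base is the last base of the E2F-type motif. The motifs searched on both strands in the 250 bases before each start were the E-box CANNTG with its forms CACGTG and CAGCTG, the E2F-type letters TTTCCCGC and TTTGGCGC, and TTTGAA, the core of the cell cycle homology region. An E-box stood in 61.8% of the 35116 promoters of the table, CACGTG in 6.34%, CAGCTG in 14.0%, TTTCCCGC in 1.39%, TTTGGCGC in 0.550% and TTTGAA in 13.3%. CDKN1A thus carried a motif that is common and RBL1 an E2F-type motif that is rare in promoters. The 250 bases before the CDKN1B start held none of these motifs. Of these bases 244 lie in annotated untranslated regions, so they say little about the sequence upstream of that gene. A first start of CDKN2C held CACGTG at -220 to -215, and CDKN2D held a CAGTTG at -81 to -76. For RBL2 the second of its starts held 3 E-boxes, at -230 to -225, -220 to -215 and -95 to -90, and the start listed for RB1 lies inside that gene. A match is a string of letters, and no binding was measured here.

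The libraries held between 19420408 and 29748084 counts. Levels are in CPM, reads of a gene relative to the size of its library after TMM scaling, and differences are log2 fold changes from edgeR's quasi-likelihood test over all 12 libraries. A gene was called where its p, adjusted over the 17084 genes tested after Benjamini and Hochberg, was below 0.05. The targeted gene, ID2, gave 77.9 ± 0.657 CPM for wild-type (SD, n = 3), 18.1 ± 0.777 for clone 1, 50.9 ± 3.16 for clone 2 and 41.5 ± 0.537 for rescue. This was lower in both clones, and lower still, not higher, in the libraries labelled rescue than in clone 2 (log2 fold change -0.29, adjusted p = 3.52e-06). RNA level does not show whether functional protein is made, and below "rescue" means the libraries with that label. All 9 Ewing sarcoma markers of a fixed list had reads in every group, and the 3 blood and endothelial markers measured summed to under 1 CPM. The 3 measured epithelial markers summed to 865 to 932 CPM in clone 1 against 114 to 121 in wild-type, 146 to 178 in clone 2 and 75.9 to 85.9 in rescue. The 6 fibroblast markers summed to 561 to 588 CPM in clone 1, against 250 to 252, 193 to 200 and 118 to 127. The part of these shifts in the results was not tested. In bulk RNA, fewer cells of a type and less RNA per cell cannot be told apart.

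Most genes of these lines differed, and the 10 are to be read against that. Against wild-type, 8 of the 10 were called in clone 1, 4 higher and 4 lower, where 61.5% of all tested genes were called (30.8% higher, 30.7% lower). In clone 2, 9 were called, 4 higher and 5 lower, beside 62.1% of all genes (31.5% higher, 30.6% lower). Rescue against clone 2 gave 5 called, 3 higher and 2 lower, beside 39.2% (19.3% and 19.9%), and rescue against wild-type gave 9, 6 higher and 3 lower, beside 58.4% (28.5% and 29.9%). Clone 2 against clone 1, which tests whether the effects in both clones differ, gave 5, 3 higher and 2 lower, beside 62.2% (30.3% and 31.9%). CDKN1C and CCND2 passed the filter on low counts only through their wild-type reads. Among the other 8 the counts called were 6, 7, 5, 7 and 4 in the same order. The median log2 fold change of the 10 was -0.05 in clone 1 and -0.05 in clone 2, next to 0.01 and 0.01 over all genes, but 0.09 and 0.08 for the 8 without CDKN1C and CCND2. In rescue against wild-type it was 0.18, or 0.21 for the 8, next to 0.00.

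**Figure D1:**
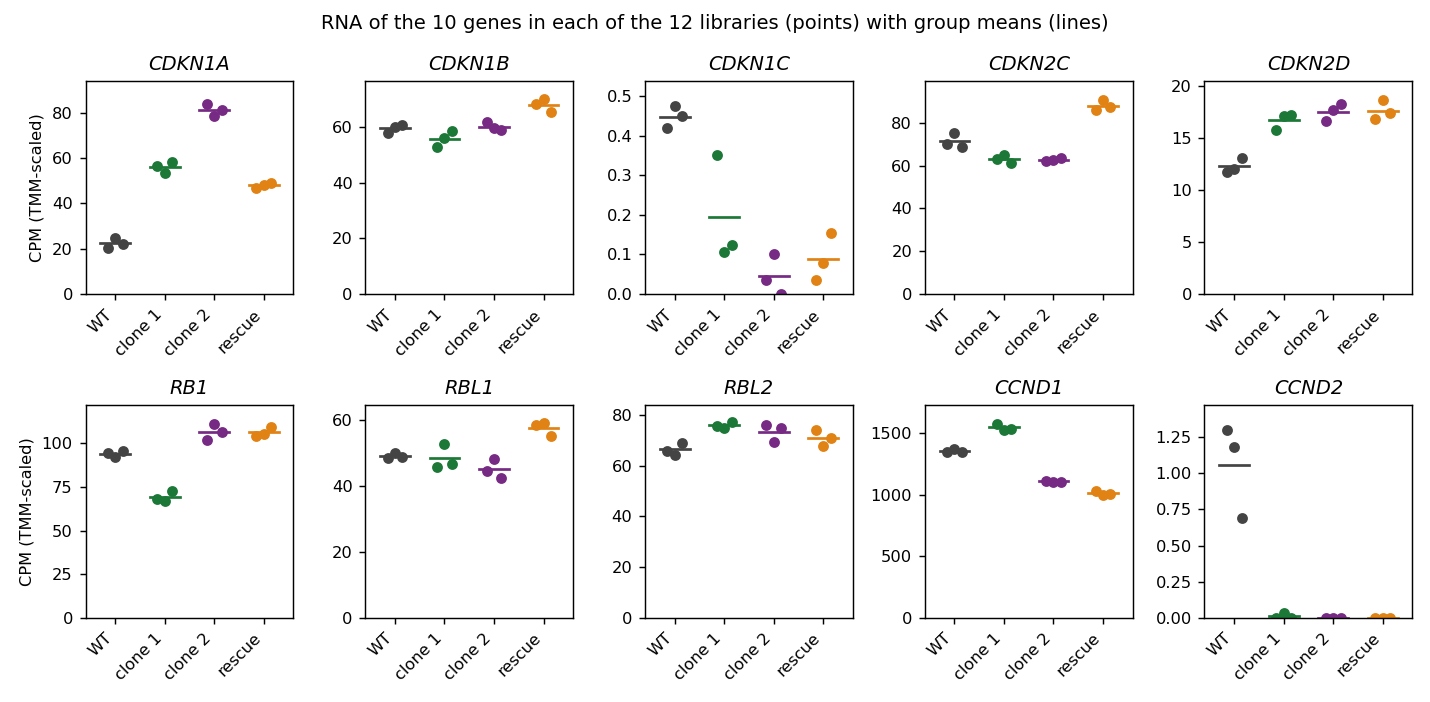
CPM after TMM scaling (vertical axes, from 0) of each of the 10 genes in each of the 12 libraries (points), with the mean of each group as a line. CDKN1A was lowest in wild-type and highest in clone 2, RB1 was lowest in clone 1, and CCND2 was read almost only in wild-type.

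CDKN1A rose the most of the 8 well-measured genes in both clones, and in rescue its level lay between wild-type and either clone. CDKN1A stood at 20.4, 24.6 and 22.03 CPM in the wild-type libraries, 56.3, 53.3 and 58.2 in clone 1, 83.8, 78.6 and 81.1 in clone 2, and 46.7, 48.2 and 48.9 in rescue. The 4 groups did not overlap, and their order was wild-type, rescue, clone 1, clone 2. Against wild-type CDKN1A was 2.51-fold higher in clone 1 (log2 fold change 1.33, SE 0.05, adjusted p = 1.54e-23) and 3.65-fold higher in clone 2 (1.87, SE 0.05, adjusted p = 1.20e-28). It was lower in rescue than in clone 2 (-0.76, SE 0.05, adjusted p = 5.11e-17) and still 2.15-fold above wild-type (1.10, SE 0.05). Clone 2 exceeded clone 1 by 0.54 (SE 0.05, adjusted p = 1.90e-13). The 115 expressed genes within 5 Mb had medians of -0.16 and -0.08 in clone 1 and clone 2, so CDKN1A rose where its neighbourhood on chromosome 6 did not.

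CDKN1B, the CIP/KIP inhibitor whose protein is mostly set by its degradation, was called in neither clone and rose in rescue. It ranged from 57.9 to 60.6 CPM in wild-type, 52.8 to 58.4 in clone 1 and 58.9 to 61.8 in clone 2, and from 65.33 to 70.01 in rescue. Wild-type overlapped both clones, whereas the rescue libraries lay above all others. CDKN1B did not pass the test in clone 1 (-0.09, SE 0.04, adjusted p = 0.0676) or in clone 2 (0.02, SE 0.04, adjusted p = 0.766), and 8 of 21 alternative settings called it lower in clone 1. In rescue it rose against clone 2 (0.17, SE 0.04, adjusted p = 0.00128) and against wild-type (0.19, SE 0.04). The 52 expressed genes within 5 Mb on chromosome 12 had medians of 0.08 and 0.18 in these comparisons. This leaves CDKN1B at 0.10 and 0.01 relative to them. Within 2 Mb the median in rescue against wild-type was 0.09. The part of the neighbourhood in the CDKN1B values was not tested. Clone 2 exceeded clone 1 by 0.11 (adjusted p = 0.0316), a call that 4 of 21 alternatives lost, up to an adjusted p of 0.242 without clone 1 replicate 1.

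CDKN1C, an imprinted inhibitor expressed from the maternal copy, was barely transcribed. Its reads numbered 10, 10 and 13 in wild-type, 7, 3 and 3 in clone 1, 1, 2 and 0 in clone 2, and 1, 2 and 4 in rescue. Every library of the other groups had fewer reads than any wild-type library. The ratio of scaled counts to wild-type was 0.402 in clone 1 (exact 95% interval 0.194 to 0.785, counting error only), 0.0960 in clone 2 (0.0188 to 0.306) and 0.198 in rescue (0.0739 to 0.455). A gene that passes the filter through wild-type alone has to stand lower elsewhere. Neither edgeR's calls of CDKN1C against wild-type nor these ratios and intervals are therefore support for a fall. Clone 2 was called below clone 1 (adjusted p = 0.0370), a call that 4 of 18 alternatives lost, up to an adjusted p of 0.240 without clone 1 replicate 1. In clone 1 the call was lost in 3 of 18 alternatives, among them DESeq2 (adjusted p = 0.106) and leaving out clone 1 replicate 2 (0.134) or replicate 3 (0.0897). Genes within 5 Mb on chromosome 11 had a median of 0.26 in clone 1 and -0.69 in clone 2 (n = 75). Over the 711 expressed genes of the whole chromosome it was -0.02 and -0.60, with 88.9% lower in clone 2. The part of the neighbourhood or chromosome in the clone 2 value was not tested.

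**Figure D2:**
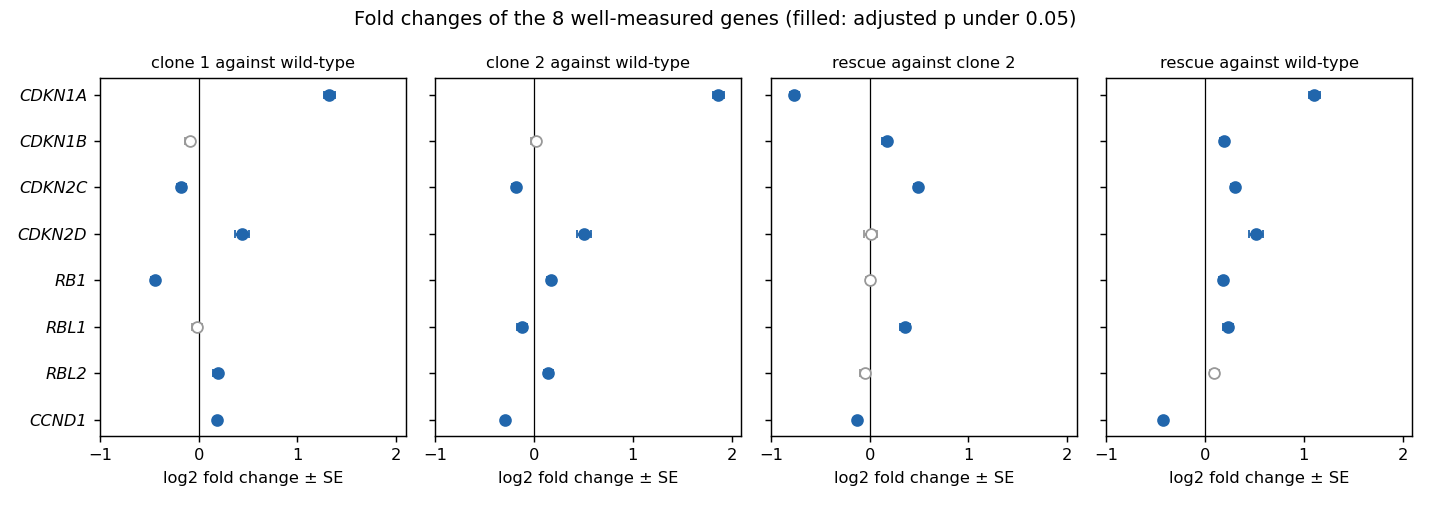
Log2 fold change with its SE (horizontal axes) of the 8 genes with at least 915 reads in every group, in 4 comparisons (panels). Filled points passed an adjusted p under 0.05. CDKN1A stands apart on the right in both clones and in rescue against wild-type, and on the left in rescue against clone 2, while the other 7 stay between -0.44 and 0.51.

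Of the INK4 inhibitors, CDKN2C fell slightly in both clones and CDKN2D rose. CDKN2C stood at 69.9, 75.1 and 68.8 CPM in wild-type, 62.9, 64.9 and 61.2 in clone 1, 62.0, 62.6 and 63.7 in clone 2, and 85.9, 90.7 and 87.2 in rescue. Both clones lay below wild-type without overlap, they overlapped each other, and rescue lay above every other library. CDKN2C fell by 0.17 in clone 1 (SE 0.04, adjusted p = 0.000395) and by 0.18 in clone 2 (SE 0.04, adjusted p = 0.000259). In rescue it was 1.40-fold above clone 2 (0.49, SE 0.04, adjusted p = 7.50e-13) and 1.24-fold above wild-type (0.31, SE 0.04), so it went past the wild-type level. The 59 neighbours within 5 Mb had medians of -0.07 in clone 1, -0.10 in clone 2 and 0.08 in rescue against clone 2. This leaves CDKN2C at -0.10, -0.08 and 0.41 relative to them. The part of the neighbourhood in the CDKN2C values was not tested.

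CDKN2D was read at 11.8, 11.99 and 13.1 CPM in wild-type, 15.8, 17.1 and 17.2 in clone 1, 16.7, 17.7 and 18.3 in clone 2, and 16.9, 18.6 and 17.4 in rescue. Wild-type was below all 9 other libraries, and those 9 overlapped. CDKN2D rose 1.36-fold in clone 1 (0.44, SE 0.07, adjusted p = 1.30e-06) and 1.42-fold in clone 2 (0.50, SE 0.07, adjusted p = 1.05e-07). Rescue differed from clone 2 by 0.01 (SE 0.07, adjusted p = 0.923). The 211 expressed genes within 5 Mb on chromosome 19 also stood higher, with medians of 0.18 in clone 1 and 0.18 in clone 2, which leaves CDKN2D at 0.26 and 0.32 above them. The part of the neighbourhood was not tested. The remaining INK4 genes were near the limit of detection: CDKN2A had 20, 21, 20 and 19 reads in wild-type, clone 1, clone 2 and rescue and was not tested, and CDKN2B, with 27, 33, 43 and 39 reads, was called in none of the 5 comparisons (lowest adjusted p 0.0770, in clone 2 against wild-type).

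RB1 moved in opposite directions in the clones. It stood at 94.3, 92.2 and 95.7 CPM in wild-type, 68.0, 67.1 and 72.4 in clone 1, 102, 111 and 106 in clone 2, and 104, 106 and 109 in rescue. Clone 1 lay below every other library, clone 2 and rescue lay above wild-type, and these last groups overlapped. RB1 fell by 0.44 in clone 1 (SE 0.04, adjusted p = 1.34e-12) and rose by 0.17 in clone 2 (SE 0.04, adjusted p = 0.000172), and clone 2 exceeded clone 1 by 0.62 (SE 0.04, adjusted p = 5.71e-17). Rescue differed from clone 2 by 0.00 (SE 0.04, adjusted p = 0.963). The 56 expressed genes within 5 Mb of RB1 on chromosome 13 moved the same way, with medians of -0.34 in clone 1, 0.12 in clone 2 and 0.44 in clone 2 against clone 1, which leaves RB1 at -0.10, 0.05 and 0.18 relative to them. The 22 genes within 2 Mb had medians of -0.26, -0.02 and 0.25, of which the clone 2 value is opposite in sign to RB1, and leave RB1 at -0.19, 0.19 and 0.37. The part of the neighbourhood in the RB1 values was not tested. Within the span of RB1 lie LPAR6 and RCBTB2 on the opposite strand, with 361 and 1290 wild-type reads against 6971 for RB1, and the part of their reads in the RB1 values was not tested.

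RBL1, a repressor that is itself made when E2F is active, rose in rescue and, near the threshold, fell in clone 2. Its libraries ranged from 48.6 to 50.1 CPM for wild-type, 45.8 to 52.7 for clone 1, 42.5 to 48.3 for clone 2 and 55.2 to 59.1 for rescue. The rescue libraries lay above all the others, clone 2 lay just below wild-type, and clone 1 overlapped both. RBL1 rose by 0.36 against clone 2 (SE 0.05, adjusted p = 2.27e-07) and by 0.23 against wild-type (SE 0.05, adjusted p = 9.24e-05). In clone 1 its value was -0.01 (SE 0.05, adjusted p = 0.823). The fall of 0.12 in clone 2 (SE 0.05, adjusted p = 0.0354) lost its call in 6 of 21 alternatives, with adjusted p between 0.0554 (a filter of 1 CPM in 3 libraries) and 0.369 (upper quartile scaling), and 0.134 without clone 2 replicate 3.

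RBL2 rose in both clones by small amounts. It ranged from 64.4 to 69.1 CPM for wild-type, 75.02 to 77.2 for clone 1, 69.2 to 76.2 for clone 2 and 67.6 to 74.1 for rescue. Clone 1 lay clear of wild-type, clone 2 lay just above it, and rescue overlapped it. RBL2 rose by 0.19 in clone 1 (SE 0.04, adjusted p = 0.000175) and by 0.14 in clone 2 (SE 0.04, adjusted p = 0.00380), the second of which lost its call without clone 2 replicate 1 (adjusted p = 0.0768). Rescue was at -0.05 against clone 2 (SE 0.04, adjusted p = 0.356) and 0.09 against wild-type (SE 0.04, adjusted p = 0.0618). The latter was called in 8 of 21 alternatives. AKTIP overlaps the end of RBL2 on the opposite strand and held 935, 979, 719 and 1019 reads in wild-type, clone 1, clone 2 and rescue, against 4929, 5499, 5163 and 5619 for RBL2. The strand setting of the counting is not known, and the part of AKTIP reads in these small differences was not tested.

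CCND1 was the most abundant of the 10 RNAs, also per kilobase of exon, and it too moved in opposite directions in the clones. Its libraries stood at 1349, 1371 and 1345 CPM in wild-type, 1572, 1527 and 1535 in clone 1, 1113, 1105 and 1106 in clone 2, and 1031, 998 and 1003 in rescue. The 4 groups did not overlap, with clone 1 highest and rescue lowest. CCND1 rose by 0.19 in clone 1 (SE 0.03, adjusted p = 1.87e-07) and fell by 0.29 in clone 2 (SE 0.03, adjusted p = 7.78e-12), and clone 2 was below clone 1 by a log2 difference of -0.48 (SE 0.03, adjusted p = 2.06e-18). In rescue it fell by a further 0.13 against clone 2 (SE 0.03, adjusted p = 0.000197), to -0.42 against wild-type (SE 0.03). The 154 expressed genes within 5 Mb on chromosome 11 had medians of 0.13 in clone 1, -0.48 in clone 2 and 0.04 in rescue against clone 2. The lower values of clone 2 were not confined to this window, whereas the higher clone 1 median was not seen over the whole chromosome. Over the 710 expressed genes of the whole chromosome the medians were -0.02 in clone 1 and -0.60 in clone 2, where 88.9% stood lower. In rescue against wild-type that median was -0.55, with 89.7% lower. CCND1 stood above its neighbours by 0.19 in clone 2, and by 0.19 to 0.31 over windows from 2 Mb to the whole chromosome. In rescue against clone 2 the 23 genes within 2 Mb had a median of -0.09, so the nearest genes stood lower too, and CCND1 stood at -0.04 relative to them. The part of the neighbourhood was not tested. Of its nearest tested genes, named after their values were seen, MYEOV fell in both clones (-1.28 and -1.11). ANO1, a chloride channel gene, stood higher in both (3.51 and 1.31). Its mean was only 0.388 ± 0.163 CPM in wild-type (SD) and 0.128 ± 0.0985 in rescue. In clone 1 it was 4.41 ± 0.515 and in clone 2 0.958 ± 0.226. Whether ANO1 passed the filter on low counts only through the clones was not tested. Its calls against wild-type are therefore no firm support for a rise. LTO1 overlaps the end of CCND1 on the opposite strand, where the doubt about the strand setting given for RBL2 holds too. LTO1, however, held 3566 wild-type reads against 100127 for CCND1.

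CCND2 was read at 31, 25 and 20 counts in the wild-type libraries, at 0, 1 and 0 in clone 1, and at 0 in all 3 libraries of clone 2 and of rescue. No library of another group came near wild-type. The clone 1 ratio was 0.0134 (exact 95% interval 0.000336 to 0.0771). Taking 3 counts over the group as the floor, CCND2 was at least 24.0-fold lower in clone 2 and at least 27.1-fold lower in rescue than in wild-type. The floor takes no account of counting error in the wild-type reads. With it, the exact intervals reach ratios of 0.0525 in clone 2 and 0.0464 in rescue. As with CDKN1C, neither its edgeR calls against wild-type nor this ratio, these folds and these intervals are support for a fall. Even in wild-type the CCND2 level was only 1.06 ± 0.324 CPM. TIGAR, which lies next to CCND2 on chromosome 12 and is named for that reason, was at 16.0 ± 0.355 CPM for wild-type, 12.9 ± 0.706 for clone 1, 11.4 ± 0.961 for clone 2 and 12.2 ± 0.953 for rescue.

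**Figure D3:**
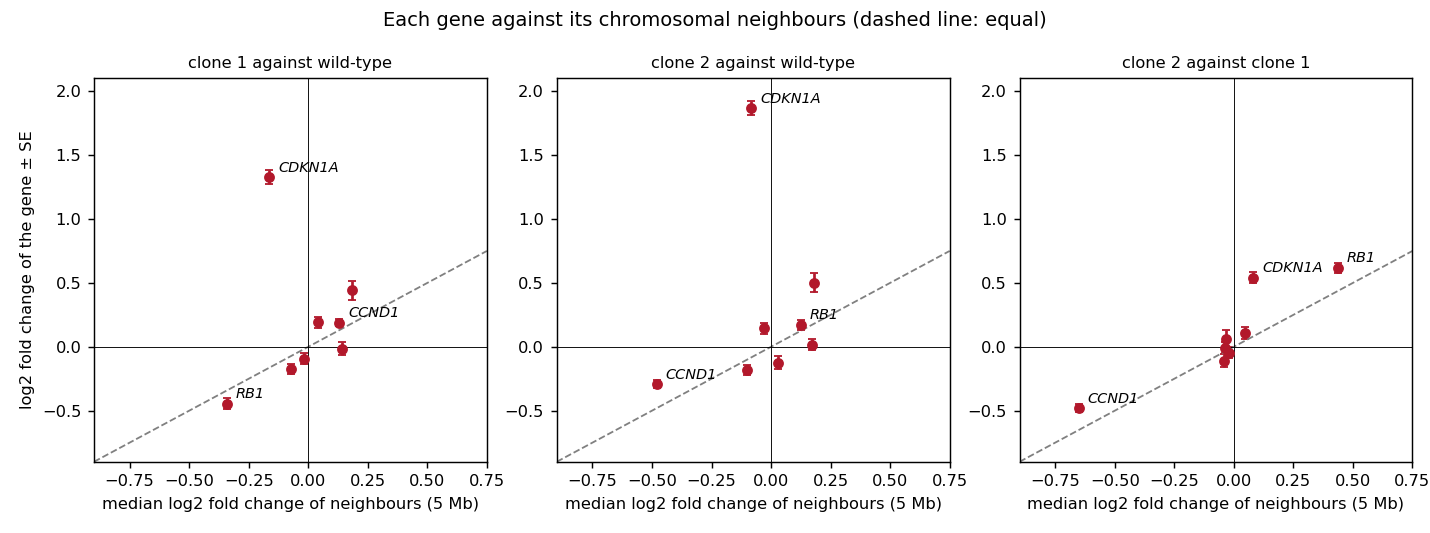
Log2 fold change of each of the 8 well-measured genes with its SE (vertical axes) against the median of expressed genes within 5 Mb (horizontal axes), in 3 comparisons (panels), with equality as a dashed line and CDKN1A, RB1 and CCND1 labelled. RB1 and CCND1 share the sign of their neighbours in all 3 panels, and CDKN1A lies far above the line.

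Set per kilobase of exon, so that genes can be compared, the make-up of each family shifted. These shares are descriptions, since an exact test of 3 against 3 libraries cannot reach a p under 0.05. CDKN1A RNA made up 25.5 ± 1.51% of CIP/KIP RNA for wild-type (SD, n = 3), 47.9 ± 1.35% for clone 1, 55.4 ± 0.611% for clone 2 and 39.4 ± 1.19% for rescue, with CDKN1B supplying nearly all of the remainder. The CIP/KIP sum rose from 28.7 ± 1.10 CPM per kb to 38.3 ± 1.43, 48.0 ± 1.26 and 39.9 ± 0.741 in the same order. The INK4 sum was 29.8 ± 0.884 in wild-type, 30.3 ± 0.804 in clone 1 and 30.8 ± 0.794 in clone 2, as CDKN2D rose while CDKN2C fell, and 38.4 ± 1.32 in rescue. The CDKN2C share of it was 72.0 ± 1.75%, 62.7 ± 1.40%, 61.4 ± 0.861% and 69.0 ± 0.440%.

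RB1 supplied 45.7 ± 0.342% of RB family RNA per kb in wild-type and 36.7 ± 1.33% in clone 1, where RBL2 went from 28.4 ± 0.591% to 35.5 ± 0.725%. In clone 2 and rescue RB1 stood at 48.3 ± 1.38% and 46.0 ± 1.20%. CCND1 accounted for 98.1 ± 0.0473% of D cyclin RNA for wild-type, 98.8 ± 0.0709% for clone 1, 97.1 ± 0.109% for clone 2 and 96.5 ± 0.220% for rescue. The small rest was almost all CCND3, with 1.83 ± 0.0608%, 1.23 ± 0.0718%, 2.94 ± 0.109% and 3.54 ± 0.220%, so CCND1 was the main D cyclin RNA in all 4 groups. The ratio of D cyclin to summed CIP/KIP and INK4 RNA was 4.89 ± 0.126 in wild-type and 4.73 ± 0.174 in clone 1, and it was lower in clone 2, at 3.00 ± 0.0170, and in rescue, at 2.77 ± 0.107. That of CCND1 to CDKN1A alone was 38.5 ± 3.25, 17.5 ± 0.727, 8.62 ± 0.245 and 13.3 ± 0.547.

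**Figure D4:**
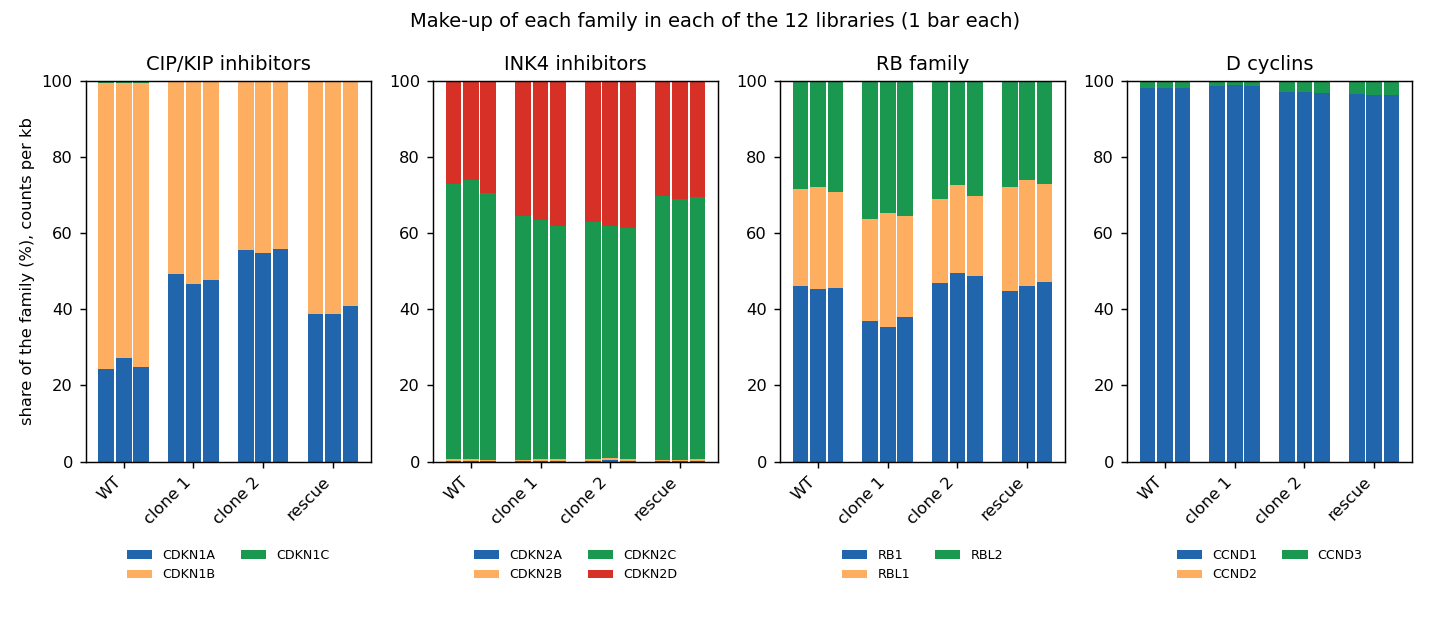
Share of each gene in the RNA of its family (vertical axes, percent, counts per kilobase of exon) in each of the 12 libraries (bars, 3 per group). The CDKN1A share was above wild-type in all 9 other libraries, and CCND1 made up over 96% of D cyclin RNA in every group.

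The partners of these genes were led by CDK6, a kinase of the D cyclins, which fell in clone 1 and rose in clone 2. CDK6 RNA stood at 2.26, 3.13 and 2.24 CPM in wild-type, 0.300, 0.356 and 0.288 in clone 1, 14.3, 14.9 and 12.5 in clone 2, and 10.2, 11.04 and 10.6 in rescue. No groups overlapped, and the clones lay on opposite sides of wild-type (log2 fold changes -2.96 and 2.47). CCND3 went the same way: it averaged 30.3 ± 1.07 CPM in wild-type, 23.2 ± 1.62 in clone 1 and 40.3 ± 1.58 in clone 2 (-0.40 and 0.41), opposite in sign to CCND1 in each clone. CDK4, the more abundant kinase, fell in both (-0.24 and -0.25) and rose in rescue against clone 2 (0.26), and its value in rescue against wild-type was 0.01 (SE 0.03, adjusted p = 0.745). CDK2, the kinase that CIP/KIP inhibitors hold back, moved alike, with -0.22, -0.21 and 0.22. Its E cyclins CCNE1 and CCNE2 fell in clone 1 (-0.35 and -0.29) and rose in clone 2 (0.42 and 0.13), though 14 of 21 alternatives lost the clone 2 call of CCNE2, with adjusted p up to 0.279 without clone 2 replicate 1.

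In the whole list of G1 kinases and E cyclins, 9 of 11 genes fell and 1 rose in clone 1, while 4 fell and 6 rose in clone 2 (medians -0.24 and 0.13). For this and the next lists, the shares of all genes called higher and lower were 30.8% and 30.7% in clone 1, 31.5% and 30.6% in clone 2, 19.3% and 19.9% in rescue against clone 2, and 28.5% and 29.9% in rescue against wild-type. CCNA1, a cyclin of germ cells, rose (1.82 and 0.64), and CDC25A, the phosphatase that activates CDK2, fell (-0.81 and -0.99), as did the S phase cyclin CCNA2 (-0.58 and -1.16). Genes known for E2F sites in their promoters were taken by name, not by the motif search above. The list includes E2F1, CCNE1 and CCNE2, which are also in other lists here. Activity of the RB family was not measured, and its part in these values was not tested. Of 25 tested genes, 22 fell and 1 rose in clone 1. In clone 2, 18 fell and 2 rose (1 in the alternatives that lost the call of CCNE2). The medians were -0.34 and -0.24, against 0.01 and 0.01 over all genes. In rescue against clone 2, 22 rose and none fell (median 0.29), and against wild-type 7 rose and 10 fell. MCM6, a part of the replicative helicase, fell by 0.54 and 0.85 in the clones and rose by 0.29 in rescue against clone 2. Of the E2F and DP factors 8 of 11 fell and 2 rose in clone 1, and 6 fell and 3 rose in clone 2. E2F1 itself fell (-0.28 and -0.24) and rose in rescue against clone 2 (0.29), and the repressors E2F5 (-1.14 and -0.42) and E2F8 (-0.89 and -0.94) fell as well, while the DP family member TFDP3, named after its values were seen, rose (1.52 and 1.20). Of the 7 partners of the DREAM and MuvB complexes 6 fell in clone 1, 5 fell in clone 2 and none rose in either, MYBL2 by 0.19 and 0.50 and FOXM1 by 0.34 and 0.55. The 3 counts of none here were also 0 at an unadjusted p under 0.05 in edgeR, and 0 with DESeq2 and limma-voom.

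Genes of the p53 pathway, of inhibitor degradation and of CIP/KIP transcription changed in both directions. Of 25 tested genes for p53 and its targets other than CDKN1A, 7 rose and 11 fell in clone 1, and 9 rose and 9 fell in clone 2. Among all tested genes 30.8% were higher and 30.7% lower in clone 1, and 31.5% and 30.6% in clone 2. BTG2, an antiproliferative target, rose 2.38-fold and 1.31-fold, and GADD45A, a stress gene, rose 1.61-fold and 2.41-fold. The next 3 genes were named after their values were seen. FAS, a death receptor, fell by 0.93 in clone 1 and rose by 0.31 in clone 2. TP53I3 rose by 0.43 in clone 1 and fell by 0.61 in clone 2, and PHLDA3, an inhibitor of AKT, had -0.04 in clone 1 (adjusted p = 0.642) and fell by 0.81 in clone 2. Of 17 parts of the ubiquitin ligases that degrade the inhibitors and D cyclins, 10 fell and 3 rose in clone 1, and 8 fell and 3 rose in clone 2 (7 rose with upper quartile scaling). SKP2, which marks CDKN1B protein for degradation, fell by 0.48 and 0.51, where CDKN1B RNA had values of -0.09 and 0.02. Of 15 regulators of CIP/KIP transcription, such as the FOXO factors, 9 fell and 3 rose in clone 1, and 8 fell and 4 rose in clone 2 (2 rose without wild-type replicate 3 or without clone 2 replicate 2). SMAD3, which carries TGF-beta signals, rose by 0.67 in clone 1 and fell by 0.16 in clone 2, the latter no longer called with upper quartile scaling (adjusted p = 0.110). Both comparisons share the wild-type libraries, and these lists were chosen with results of these data known.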

How the data were processed

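Raw read counts per gene were deposited by the authors for the 12 libraries. The submitters' processing notes name FastQC, STAR and hg38, without versions. For the read counter, strand setting and annotation, nothing is given in the sources used here. Groups came from the library titles. Symbols matched 20717 identifiers, and GENCODE release 29 gave positions and exon lengths. Tests used edgeR 4.0.16 in R 4.3.3 (quasi-likelihood, TMM, minimum count 10, 17084 genes, 8 residual degrees of freedom, adjusted p under 0.05) and were tested on simulated data. Alternatives included DESeq2 1.42.0, limma-voom (limma 3.58.1), other scalings and filters, and leaving out each library. Those for partner and list genes were added after seeing the data. Named were the 10 genes, ID2, their direct partners and up to 3 called genes per list with the largest changes and a mean of 1 CPM or more, and MYEOV, ANO1 and TIGAR after their values were seen. The members and lists were chosen with earlier results of these data known. Floors (3 counts) and intervals cover counting error only. Library pairs differed by more than sampling noise (chi-square per degree of freedom 1.58 to 3.40). The RBL1 and RBL2 promoters and all others are from RefSeq; CDKN1C, CCND1 and CCND2 had no entry.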

Additional observations from a re-analysis of the deposited data

Results flagged for a closer look

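The following genes differed from wild-type by unequal amounts in the clones, by the test of clone 2 against clone 1 itself (edgeR, adjusted p under 0.05), given as log2 differences of clone 2 from clone 1. The knockout and what is peculiar to a clone cannot be told apart here. CDKN1A was higher in clone 2 by 0.54 and CDKN1B by 0.11, RB1 was higher by 0.62, and CDKN1C and CCND1 were lower, at -1.95 and -0.48. The CDKN1C value rests on 3 reads in clone 2 against 13 in clone 1, and 4 of 18 alternatives lost its call. The CDKN1B call was lost in 4 of 21. The CDKN1A difference is one of size, since it rose in both clones, whereas RB1 and CCND1 had opposite signs against wild-type.

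Among the partners, CDK6 differed by 5.43, CCND3 by 0.81, CCNE1 by 0.77 and CCNE2 by 0.42, and the targeted gene ID2 by 1.49. Of the other genes named, E2F5 was higher in clone 2 by 0.72, GADD45A by 0.58, FAS by 1.24 and MYEOV by 0.16, a difference whose call 11 of 21 alternatives lost. Lower in clone 2 were CCNA1 at -1.18, CCNA2 at -0.58, CDC25A at -0.18, FOXM1 at -0.21, MYBL2 at -0.30, MCM6 at -0.30, BTG2 at -0.86, SMAD3 at -0.84, TFDP3 at -0.32, PHLDA3 at -0.77, TP53I3 at -1.04 and ANO1 at -2.20. RRM2 was higher in clone 2 by 0.94 and TK1 was lower, at -0.99. Of all tested genes, 62.2% were called in this comparison.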

How the results depend on the processing

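Across 21 alternatives per value at most, 34 of the 48 fold changes of the 10 genes kept their direction and their side of the threshold, and 14 did not under at least 1. The 48 include CDKN1C and CCND2 against wild-type. Their direction was fixed by the filter, so keeping it there is no sign of stability. CDKN1A, CCND1 and RB1 kept their calls in both clones in all 21. The count of genes called stayed within 6 to 9 in clone 1, 6 to 9 in clone 2, 8 to 10 in rescue against wild-type, and was 5 throughout in rescue against clone 2. In clone 2 against clone 1 it was 5, and ran from 3 (without clone 2 replicate 1) to 6 when a library was left out. Against wild-type, CDKN1C had a result in only 18 or 19 of 21 alternatives and CCND2 in 20. Some of these counts are therefore out of fewer than 10 genes. The main fit called 61.5% of all tested genes in clone 1, 62.1% in clone 2 and 58.4% in rescue against wild-type. It called 39.2% in rescue against clone 2 and 62.2% in clone 2 against clone 1. The shares under each alternative are not given here. Signs changed only where the main value was not called, and the cause was not tested. CDKN1B in clone 2 was -0.010 with TMM scaling that left out the genes of 3 chromosomes, -0.018 with no filter, and -0.019 to 0.020 when a library was left out. CDKN2D in rescue against clone 2 was -0.015 with upper quartile scaling and -0.020 to 0.055 when a library was left out. RB1 in rescue against clone 2 was -0.023 with upper quartile scaling, -0.0026 with a filter of 1 CPM in 3 libraries, -0.00025 with only the groups compared, and -0.018 to 0.046 when a library was left out. RBL1 in clone 1 ran from -0.078 to 0.014 and PHLDA3 there from -0.10 to 0.0046 when a library was left out. In clone 2 against clone 1, CDKN2C was 0.055 with upper quartile scaling, 0.0056 with the 1 CPM filter and -0.035 to 0.0068 when a library was left out, and RBL2 was 0.015 with upper quartile scaling. Without division by length, CCND1 made up 97.7%, 98.5%, 96.5% and 95.8% of D cyclin RNA in wild-type, clone 1, clone 2 and rescue, CCND3 2.19%, 1.48%, 3.51% and 4.23%, and CCND2 0.0762% in wild-type. Neighbours within 2 or 10 Mb or on the whole chromosome turned the sign of no called gene relative to them, and moved 54 of 135 such differences (CCND3 included) by more than the SE.

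The replicate numbers of the titles were not treated as pairs, since in no pair of groups did all 3 same-numbered libraries deviate together with r over 0.1. A replicate block gave 8, 9, 5, 10 and 6 genes called, in place of 8, 9, 5, 9 and 5. In the same order, the main fit called 61.5%, 62.1%, 39.2%, 58.4% and 62.2% of all tested genes. Depth limits CDKN1C, CCND2, CDKN2A and CDKN2B, which had at most 76 reads in any group. The limma-voom and edgeR fits assume that a group left with 2 libraries varies like the rest.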
